A study of Bos taurus with 12 samples.

Results

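The genes examined here encode the proteins of the mitochondrial ribosome and of the machinery that brings proteins into mitochondria. Members were all genes on the bovine expression array whose probe set carried exactly 1 gene symbol that started with MRPL or MRPS plus a digit, TIMM or TOMM, with MRPS36 left out because its protein belongs to the ketoglutarate dehydrogenase complex. These were 97 of the 18010 genes so named on the array, with 48 in the large subunit list (MRPL), 26 in the small subunit list (MRPS) and 23 in the import list (TIMM and TOMM), and all 97 passed the filter on low values. Of 102 genes with such symbols in the RefSeq annotation (assembly ARS-UCD2.0), 5 were not members: MRPS17, MRPS24, TOMM6 and TOMM20, whose probe sets carry more than 1 symbol, and MRPL40, for which no probe set was named. The arrays measured pooled expanded bovine blastocysts in 4 groups of 3 arrays, each array a separate pool. In the control group, VIVO, blastocysts developed wholly in superovulated, inseminated donors and were flushed from the uterus. In the group VITRO, oocytes from slaughterhouse ovaries were matured, fertilised and cultured wholly in the laboratory. In the group IFOT-M, slaughterhouse oocytes matured in the laboratory were injected into the preovulatory follicle of an inseminated heifer, where fertilisation and development followed in the animal, and in the group IFOT-IM the oocytes were injected while still immature into a dominant follicle, so that maturation took place there too. Semen of the same bull served all 4 groups per the study's methods. VIVO differed from the other 3 groups in oocyte donor and in superovulation, from VITRO also in the site of development, and from IFOT-M and IFOT-IM also in the injection into a follicle. In each comparison with VIVO these cannot be told apart from the treatment of the oocyte or embryo. The study's authors state that the injection may itself affect expression. They add that IFOT-M and IFOT-IM pools may hold some embryos from the recipient's own oocytes.

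The mitochondrial ribosome translates the few messenger RNAs of mitochondrial DNA, which encode core subunits of the respiratory chain and of ATP synthase. All of its proteins are made in the cytosol from nuclear genes and must be imported, as must most other mitochondrial proteins. Precursors cross the outer membrane through the TOM complex. The TIM23 complex then takes those with a presequence across or into the inner membrane, while small TIM chaperones of the intermembrane space hand carrier proteins to the TIM22 complex. In the blastocyst, mitochondrial respiration supplies energy for the sodium pumps that fill the cavity. Roles of single proteins given below are those known from human or yeast.

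Values were log2 signals. Before the members are described, a property of all probe sets has to be given, because it moved with the groups. The SD over all probe sets of an array ranged from 1.73 to 1.75 in VIVO, from 1.65 to 1.68 in IFOT-M and from 1.50 to 1.54 in VITRO. In IFOT-IM it was 1.64 on 2 arrays and 1.55 on replicate 1, which stood nearer to the VITRO arrays, so results for IFOT-IM are also given without that array. Of the blastocyst markers, KRT18, GATA6, SOX2, TFAP2C and POU5F1 had group means of 8.79, 8.33, 6.48, 6.25 and 5.82 in VIVO, whereas CDX2 (2.77), SOX17 (1.33) and GATA4 (1.21) were low. The median over 8 cumulus and granulosa markers was 0.824 to 0.943 on VIVO arrays and 1.02 to 1.37 on VITRO arrays, and over 6 oocyte markers 1.24 to 1.41 and 1.54 to 1.74, all near the floor of the array. All 7 measured trophectoderm markers were called lower in VITRO than in VIVO, with array medians of 4.86 to 5.23 on VIVO arrays and 4.27 to 4.77 on VITRO arrays. Of 3 inner cell mass markers, POU5F1 (group means 5.82 in VIVO and 4.73 in VITRO) and SOX2 (6.48 and 5.32) were called lower and NANOG (3.39 and 4.51) higher. The part of these shifts, and of the lower RNA integrity that the study's sample sheet gives for every VITRO pool than for every VIVO pool, in the results below was not tested, except that integrity entered 1 alternative fit as a covariate. Each pool was measured as bulk RNA, so fewer cells of a type and less RNA per cell cannot be told apart.

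Members as a set were highest in VIVO, lower in both transfer groups and lowest in VITRO. The median level over the 97 members was 4.41 to 4.51 on the VIVO arrays, 4.14 to 4.21 on IFOT-M arrays, 4.01 to 4.06 on IFOT-IM arrays and 3.72 to 3.77 on VITRO arrays, so the groups did not overlap. Over the same arrays the median of all probe sets ran the other way, from 1.75 to 1.78 in VIVO to 1.95 to 1.97 in VITRO. By list, the mean of the array medians fell from 4.37 ± 0.011 in VIVO to 3.79 ± 0.064 in VITRO for the large subunit, from 4.54 ± 0.067 to 3.69 ± 0.13 for the small subunit and from 4.61 ± 0.081 to 3.70 ± 0.089 for import (SD, n = 3). For single genes, VITRO had the lowest group mean in 71 of 97 and VIVO the highest in 71, and 51 of 97 followed the full order VITRO, IFOT-IM, IFOT-M, VIVO. The shares of all probe sets with these orders were not counted. In the highest of 10 bands of mean level (described below), all probe sets had medians in the same order. Their median differences from VIVO were -0.66 in VITRO, -0.34 in IFOT-IM and -0.16 in IFOT-M.

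**Figure D1:**
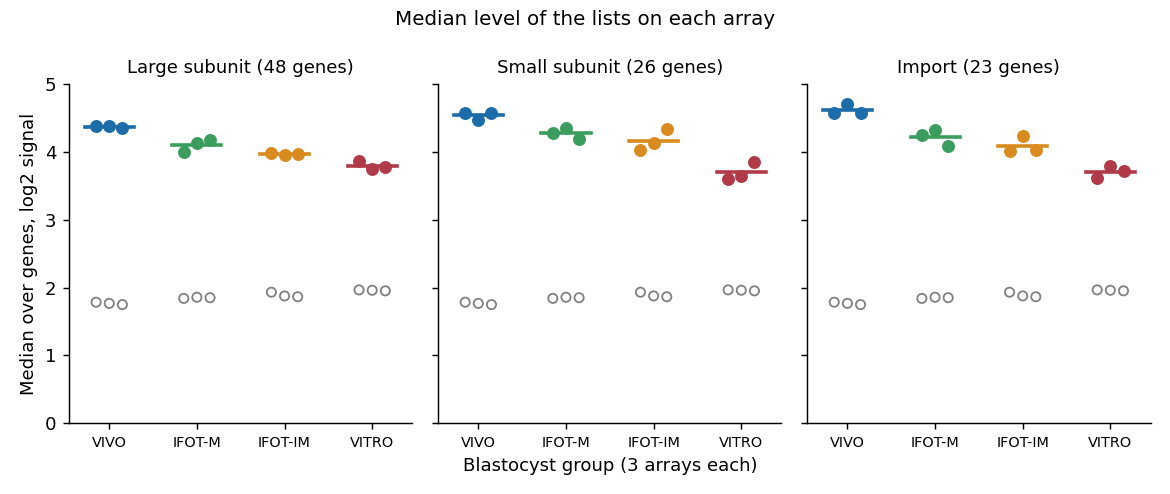
Median log2 signal over the genes of each list on each array (filled points, with a bar at the group mean) and over all probe sets of that array (open grey points), by blastocyst group. The lists lie lowest in VITRO and highest in VIVO, while the median of all probe sets is slightly higher in VITRO.

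The first comparison asked what development wholly in the laboratory changed against development wholly in the animal. A gene was called where the limma test over all probe sets that passed the filter gave a false discovery rate (FDR) below 0.1. In VITRO, 31 of 48 large subunit members were lower than in VIVO and 1 was higher, 17 of 26 small subunit members were lower and none was higher, and 17 of 23 import members were lower and 2 higher. Over all probe sets tested 22.7% were lower and 25.1% higher. The median difference was -0.55 in the large subunit, -0.71 in the small subunit and -0.67 in import, against 0.13 over all probe sets. Of the 65 members that fell, 20 also changed more than 2-fold with an unadjusted p below 0.05, 6 in the large subunit, 8 in the small subunit and 6 in import, where 5.71% of all probe sets did so in that direction. On every VITRO array 65 of 97 members lay below every VIVO array, as did 23.2% of all probe sets. With each array left out in turn, 59 of the 65 were called lower each time. With RNA integrity as a covariate the 3 counts of lower members were 26, 15 and 17.

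Most members are strongly expressed, and strongly expressed probe sets were in general lower in VITRO. When the probe sets were split by mean level into 10 bands of equal size, 30 members fell in band 9 and 35 in band 10, the highest. The median difference between VITRO and VIVO went from 0.24 in the lowest band to -0.56 and -0.66 in these, and the share called lower went from 1.15% to 62.4% and 69.8%. Of the 65 members in bands 9 and 10, 53 were called lower, which is 81.5%, against 66.1% of all probe sets there. Relative to the median of each member's own level band, the median difference was -0.13 in the large subunit list, with 32 of 48 members below that median, -0.32 in the small subunit list (20 of 26) and -0.22 in the import list (18 of 23). The members thus shared a large part of their distance from the whole array with other probe sets of like level.

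**Figure D2:**
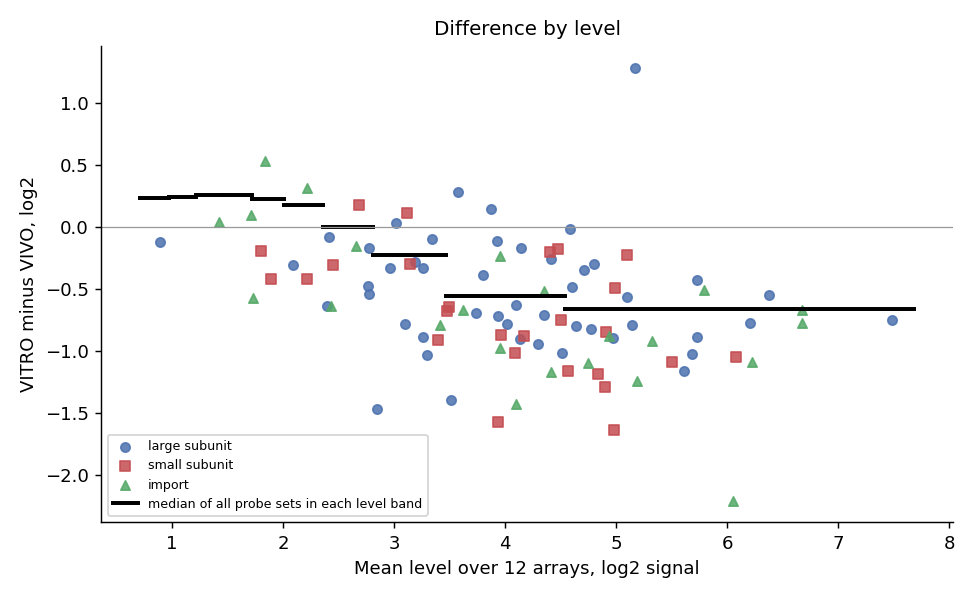
Difference between VITRO and VIVO for each of the 97 members (points, by list) against its mean log2 signal over 12 arrays, with the median of all probe sets in each level band (black steps). The steps fall from 0.24 to -0.66, and small subunit and import members lie mostly below them.

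The deposited values keep this difference in spread between arrays, and scalings that remove it made the counts smaller. After quantile normalization 16, 12 and 13 members of the large subunit, small subunit and import lists were lower in VITRO and 4, 1 and 0 higher, with medians of -0.24, -0.41 and -0.35, where 16.6% of all probe sets were lower and 12.9% higher. After cyclic loess normalization 12, 12 and 9 were lower and 6, 3 and 0 higher, with medians of -0.14, -0.36 and -0.23, and 14.8% of all probe sets were lower and 13.6% higher. Under all 3 scalings 32 of the 65 remained lower. These were 12 in the large subunit (MRPL1, MRPL4, MRPL13, MRPL22, MRPL32, MRPL39, MRPL42, MRPL44, MRPL45, MRPL47, MRPL50, MRPL57), 11 in the small subunit (MRPS5, MRPS7, MRPS10, MRPS14, MRPS15, MRPS18C, MRPS22, MRPS27, MRPS30, MRPS31, MRPS35) and 9 in import (TIMM8A, TIMM9, TIMM13, TIMM21, TIMM22, TIMM23, TIMM50, TOMM5, TOMM70). MRPL11 was called lower on the deposited values (-0.30) and higher after cyclic loess normalization (0.35, FDR 0.070), so no direction is given for it. Of the 17 import members called lower, those that lost the call under at least 1 scaling were TOMM7, TOMM22, TOMM40, TIMM8B, TIMM10, TIMM17A, TIMM17B and TIMM44, and all 5 TOM subunits named below kept a negative difference under every scaling.

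At the outer membrane, all 5 measured subunits of the TOM complex were lower in VITRO. TOMM70, a receptor that takes carrier precursors from cytosolic chaperones, fell most. It measured 4.81, 5.09 and 4.92 on the VIVO arrays, 4.21, 4.11 and 4.09 in IFOT-M, 3.34, 4.01 and 4.02 in IFOT-IM and 3.45, 3.49 and 3.61 in VITRO. VIVO overlapped no other group, and the lowest IFOT-IM value came from replicate 1. The difference from VIVO was -1.43 in VITRO (SE 0.169, FDR 8.6e-05), -1.15 in IFOT-IM and -0.81 in IFOT-M, all called. TOMM5, a small subunit of the complex, differed by -1.10, -0.98 and -0.87 in VITRO, IFOT-IM and IFOT-M, and TOMM7, another small subunit, by -0.78, -0.61 and -0.61, all called. TOMM22, the central receptor that also holds the complex together, was lower in VITRO (-0.92) and IFOT-IM (-0.64) and stood at -0.41 in IFOT-M, which was not called.

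TOMM40, the channel through which nearly all precursors cross the outer membrane, was set apart from the rest of its complex. It measured 5.11, 5.22 and 5.06 in VIVO, 5.07, 5.25 and 5.28 in IFOT-M, 4.85, 5.14 and 5.47 in IFOT-IM and 4.68, 4.14 and 3.94 in VITRO. Every VITRO array was below all others, while the other 3 groups overlapped. The difference from VIVO was -0.88 in VITRO (SE 0.193, FDR 0.0041), 0.03 in IFOT-IM and 0.07 in IFOT-M, and VITRO was also lower than IFOT-M (-0.95, FDR 0.0083) and IFOT-IM (-0.90, FDR 0.020). Against VIVO the call was lost after quantile (-0.34) and cyclic loess normalization (-0.21), and after cyclic loess normalization those against IFOT-M (-0.52, FDR 0.15) and IFOT-IM (-0.61, FDR 0.13) were lost too. The 3 relatives of TOM subunits, all at low levels, did not fall. TOMM40L, a second form of the channel protein, was higher in VITRO by 0.31 (FDR 0.066), TOMM20L, a relative of the receptor TOMM20, was higher by 0.54 (FDR 0.095), and TOMM34, a cytosolic cochaperone, differed by 0.09. The median probe set of their level was also higher in VITRO, and the call of TOMM40L was lost without VIVO replicate 2 or 3 or VITRO replicate 1 or 3, that of TOMM20L without any of 8 arrays.

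Among the small TIM chaperones, TIMM8A had the largest difference of all members. TIMM8A pairs with TIMM13 in a hexamer that escorts hydrophobic precursors, and its loss in people causes a deafness and dystonia syndrome. It measured 7.26, 7.29 and 7.43 in VIVO, 6.41, 6.42 and 5.63 in IFOT-M, 4.75, 5.94 and 6.17 in IFOT-IM and 4.48, 5.52 and 5.36 in VITRO. VIVO arrays agreed closely and lay above all others, and the other 3 groups were scattered, with IFOT-IM overlapping both IFOT-M and VITRO. The difference from VIVO was -2.21 in VITRO (SE 0.356, FDR 6e-04), a 4.62-fold lower level, -1.71 in IFOT-IM (FDR 0.0077) and -1.18 in IFOT-M (FDR 0.072). The call in IFOT-M was lost whenever an array of VIVO or IFOT-M was left out.

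TIMM13, the partner of TIMM8A in the hexamer, had another pattern. It measured 6.51, 6.43 and 6.51 in VIVO, 6.71, 6.37 and 6.46 in IFOT-M, 6.46, 6.47 and 6.57 in IFOT-IM and 5.34, 5.29 and 5.55 in VITRO. On the deposited values only the VITRO arrays stood apart. The difference from VIVO was -1.09 in VITRO (SE 0.124, FDR 6.6e-05), 0.02 in IFOT-IM and 0.03 in IFOT-M, and the difference of VITRO from IFOT-M was -1.12 and from IFOT-IM -1.11 (FDR 5e-04 and 0.0011). These 3 differences of VITRO were called under all scalings, at -0.55 from VIVO after quantile and -0.40 after cyclic loess normalization. After the latter IFOT-IM was also called higher than VIVO (0.41, FDR 0.053).

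TIMM8B, the close relative of TIMM8A, was lower in all 3 groups, and least in VITRO. It measured 7.32, 7.18 and 7.30 in VIVO, 6.39, 6.46 and 6.46 in IFOT-M, 6.30, 6.44 and 6.44 in IFOT-IM and 6.54, 6.69 and 6.57 in VITRO. The difference was -0.67, -0.88 and -0.83 in VITRO, IFOT-IM and IFOT-M (each SE 0.107). VITRO did not pass the test against IFOT-M (0.16, FDR 0.34) or IFOT-IM (0.21, FDR 0.29) on the deposited values. After quantile normalization VITRO was called higher than IFOT-M (0.47, FDR 0.019) and IFOT-IM (0.37, FDR 0.072), and still lower than VIVO (-0.27, FDR 0.082). After cyclic loess normalization the difference of VITRO from VIVO was 0.002 with FDR 0.99, while those of IFOT-M (-0.61) and IFOT-IM (-0.48) kept their calls, and VITRO was then called higher than IFOT-M (0.62) and IFOT-IM (0.48). TIMM9 and TIMM10 form the hexamer that carries metabolite carriers to TIM22. TIMM9 was lower in VITRO (-0.57) and IFOT-IM (-0.72), TIMM10 was lower in VITRO (-0.52), and TIMM10B, which docks that hexamer on TIM22, passed no test against VIVO.

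All 6 measured members of the TIM23 complex were lower in VITRO on the deposited values, but TIMM17B and TIMM44 were called under neither other scaling and TIMM17A was not called after cyclic loess normalization. Their differences from VIVO fell into separate kinds. TIMM23, the core of the channel, measured 5.76, 5.62 and 5.81 in VIVO, 5.54, 5.44 and 5.20 in IFOT-M, 4.79, 5.28 and 5.33 in IFOT-IM and 4.35, 4.51 and 4.59 in VITRO. The difference was -1.24 in VITRO (SE 0.158, FDR 0.00013), -0.59 in IFOT-IM (called) and -0.33 in IFOT-M (not called). TIMM50, the receptor that takes presequences from TOM, differed by -1.17, -0.48 and -0.20 in VITRO, IFOT-IM and IFOT-M, and TIMM17A, a channel partner, by -0.98, -0.38 and -0.12. The IFOT-IM call of TIMM50 was lost without IFOT-IM replicate 1, among 5 such arrays, and TIMM17A was called in VITRO alone. In TIMM23 and TIMM50 VITRO was also lower than IFOT-M (-0.91 and -0.97) and IFOT-IM (-0.65 and -0.70), although the calls against IFOT-IM were lost without IFOT-IM replicate 2 or 3.

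The other kind, TIMM21 and TIMM17B, had nearly equal differences from VIVO in the 3 groups on the deposited values. TIMM21, which links TIM23 to TOM and to respiratory chain assembly, measured 3.92, 3.97 and 4.08 in VIVO, 3.12, 3.30 and 3.37 in IFOT-M, 3.05, 3.13 and 3.43 in IFOT-IM and 3.14, 3.22 and 3.24 in VITRO. Its difference was -0.79, -0.79 and -0.73 in VITRO, IFOT-IM and IFOT-M, all called. TIMM17B, the second form of the channel partner, differed by -0.51, -0.48 and -0.46, all called on the deposited values, but by 0.03 in VITRO after quantile normalization. After cyclic loess normalization TIMM17B was called higher in VITRO than in IFOT-M (0.41, FDR 0.094). TIMM44, which anchors the import motor, was less even. It was called lower only in VITRO (-0.67) and stood at -0.40 in IFOT-IM and -0.43 in IFOT-M, though VITRO passed no test against either. In the TIM22 complex, the channel TIMM22 was lower in VITRO (-0.64) and IFOT-IM (-0.58, a call lost without any of 5 arrays) and TIMM29, a subunit found in animals, differed by -0.15 and -0.23. TIMMDC1, which carries the symbol of the family but assists respiratory complex I assembly, did not differ by more than 0.05 from VIVO in any group.

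**Figure D3:**
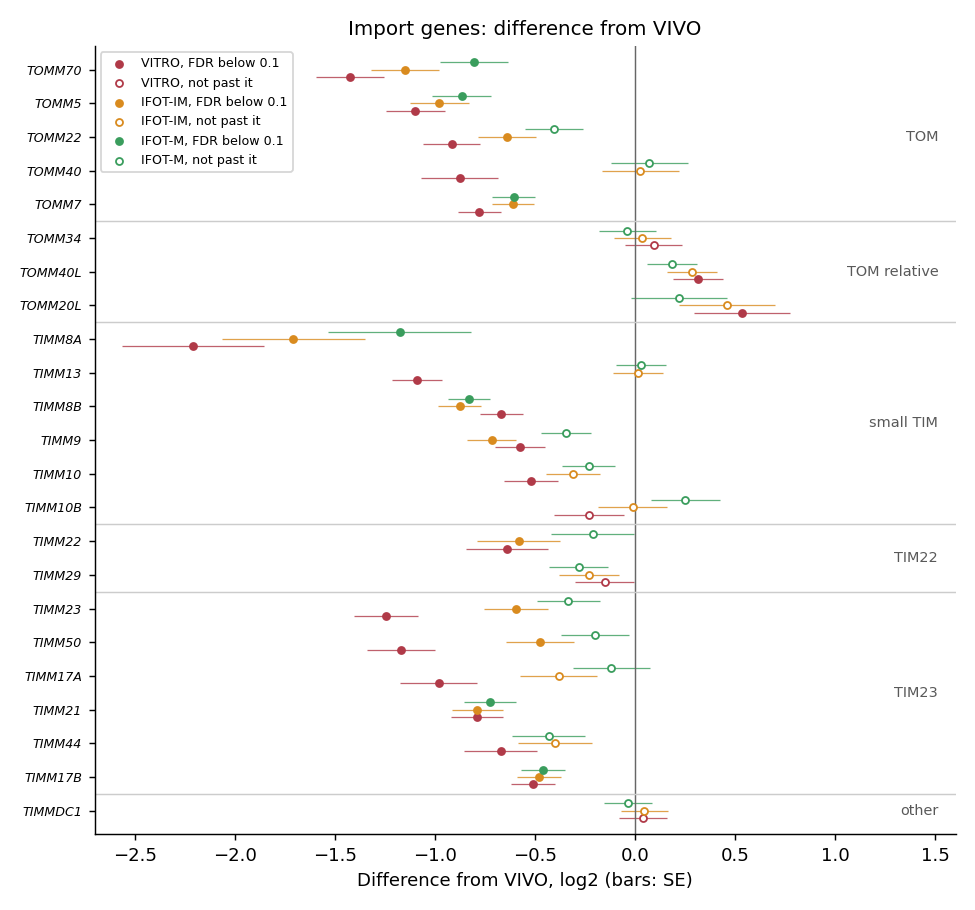
Difference from VIVO (log2, bars are SE) of the 23 import genes in VITRO, IFOT-IM and IFOT-M, filled where FDR was below 0.1, grouped by complex. TIMM13 and TOMM40 lie near 0 in both transfer groups and at -1.09 and -0.88 in VITRO, whereas TIMM8B, TIMM21 and TOMM7 are displaced in all 3 groups.

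In the large subunit the lowest differences between VITRO and VIVO were those of MRPL32, MRPL1, MRPL39, MRPL50 and MRPL42 (-1.47, -1.40, -1.16, -1.03 and -1.03). MRPL32, whose yeast and mouse counterparts are matured by the m-AAA protease before assembly, measured 3.86, 3.98 and 3.91 in VIVO, 2.58, 2.73 and 2.38 in IFOT-M, 2.26, 2.30 and 2.84 in IFOT-IM and 2.44, 2.59 and 2.31 in VITRO. The 9 arrays outside VIVO lay together, more than 1 log2 unit below VIVO. The difference was -1.47 in VITRO (SE 0.162, FDR 5.5e-05), -1.35 in IFOT-M (FDR 0.00067) and -1.45 in IFOT-IM (FDR 0.00023), and those calls held under both other scalings. MRPL1, a protein of the stalk where spent transfer RNA leaves, measured 4.21, 4.36 and 4.29 in VIVO, 3.72, 3.47 and 3.62 in IFOT-M, 3.15, 3.34 and 3.31 in IFOT-IM and 2.62, 3.14 and 2.90 in VITRO. Its 4 groups did not overlap, although the highest VITRO array (3.14) lay just under the lowest IFOT-IM array (3.15), and the differences were -1.40, -1.02 and -0.68 in VITRO, IFOT-IM and IFOT-M.

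Other large subunit members were lower in VITRO than in both transfer groups. MRPL21 measured 6.37, 6.35 and 6.56 in VIVO, 6.45, 6.43 and 6.30 in IFOT-M, 6.20, 6.42 and 6.40 in IFOT-IM and 5.29, 5.78 and 5.87 in VITRO. All VITRO arrays lay below the others, and the difference from VIVO was -0.78 in VITRO (FDR 0.0020), -0.09 in IFOT-IM and -0.03 in IFOT-M. Against VIVO the call was lost after quantile (-0.25) and cyclic loess normalization (-0.09), as was that against IFOT-M (-0.37 and -0.28), and that against IFOT-IM after cyclic loess normalization (-0.40). MRPL22 and MRPL47, whose proteins lie near the exit of the nascent chain tunnel, differed by -0.94 and -1.02 in VITRO, by -0.09 and -0.17 in IFOT-M and by -0.26 and -0.33 in IFOT-IM, and both were lower in VITRO than in either transfer group, against IFOT-IM not after cyclic loess normalization (-0.42 and -0.41). The strongest signals of the list were those of MRPL33 and MRPL27 (mean in VIVO 7.90 and 6.70), which differed by -0.75 and -0.55 in VITRO. The call of MRPL33 was lost after quantile (-0.345, FDR 0.115) and cyclic loess normalization (-0.13, FDR 0.55). The call of MRPL27 was lost without VIVO replicate 2 or 3 or VITRO replicate 1, and its difference was 0.14 after cyclic loess normalization.

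In the small subunit, MRPS10 and MRPS27 had the lowest differences between VITRO and VIVO. MRPS10, of the subunit's head, measured 5.91, 5.92 and 6.01 in VIVO, 5.04, 4.88 and 5.14 in IFOT-M, 4.28, 5.09 and 4.59 in IFOT-IM and 4.16, 4.35 and 4.41 in VITRO. VIVO lay above every other array, and IFOT-IM spread from the IFOT-M to the VITRO values, with replicate 1 the lowest. The difference was -1.64 in VITRO (SE 0.176, FDR 4.9e-05, 3.11-fold lower), -1.29 in IFOT-IM and -0.92 in IFOT-M. MRPS27, an RNA-binding protein of the pentatricopeptide repeat type, measured 4.51, 4.65 and 4.70 in VIVO, 3.99, 3.91 and 4.10 in IFOT-M, 3.97, 3.98 and 4.28 in IFOT-IM and 3.20, 3.08 and 2.86 in VITRO. On the deposited values it showed 3 separate levels, with both transfer groups between VIVO and VITRO. The difference was -1.57 in VITRO (SE 0.133, FDR 1.3e-05), -0.54 in IFOT-IM and -0.62 in IFOT-M, and VITRO was lower than IFOT-M (-0.95) and IFOT-IM (-1.03, FDR 0.0015 and 0.0021). Against VIVO the IFOT-IM call was lost after quantile (-0.25) and cyclic loess normalization (-0.27). The IFOT-M call was lost after quantile normalization (-0.41, FDR 0.13).

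MRPS22, MRPS31 and MRPS14 followed in VITRO (-1.29, -1.19 and -1.16). MRPS14, also of the head, was called lower in IFOT-IM (-0.78) and IFOT-M (-0.73) too, and MRPS22 (-0.75) and MRPS31 (-0.75) in IFOT-IM, where both calls were lost without IFOT-IM replicate 1. MRPS30 and MRPS18A keep the symbols of the small subunit although their proteins sit in the large subunit. MRPS30 was lower in VITRO (-1.09), IFOT-IM (-0.68) and IFOT-M (-0.53). Its calls in both transfer groups were lost under either other scaling, and that in IFOT-M also without any of 5 arrays. MRPS18A passed no test on the deposited values (-0.22, -0.19 and 0.01) and was called higher in VITRO after quantile (0.34, FDR 0.096) and cyclic loess normalization (0.45, FDR 0.027). MRPS11, MRPS6 and MRPS26 had the highest differences of the list (0.18, 0.11 and -0.18) and passed no test on the deposited values. MRPS26 was higher in VITRO after cyclic loess normalization (0.43, FDR 0.032).

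Members differ in descent as well, since many mitoribosomal proteins have bacterial counterparts and others were gained in mitochondria. By the numbering of the symbols, which follows this split only roughly, MRPL1 to MRPL36 had a median difference of -0.48 in VITRO with 18 of 28 called lower, and MRPL37 and above -0.67 with 13 of 20. MRPS2 to MRPS21 had -0.75 with 10 of 15, and MRPS22 and above -0.50 with 7 of 11. The shares called lower were alike in all 4, and 22.7% of all probe sets were lower. Relative to the level bands the medians were -0.09 for MRPL1 to MRPL36 and -0.16 for MRPL37 and above. They were -0.31 for MRPS2 to MRPS21 and -0.32 for MRPS22 and above.

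**Figure D4:**
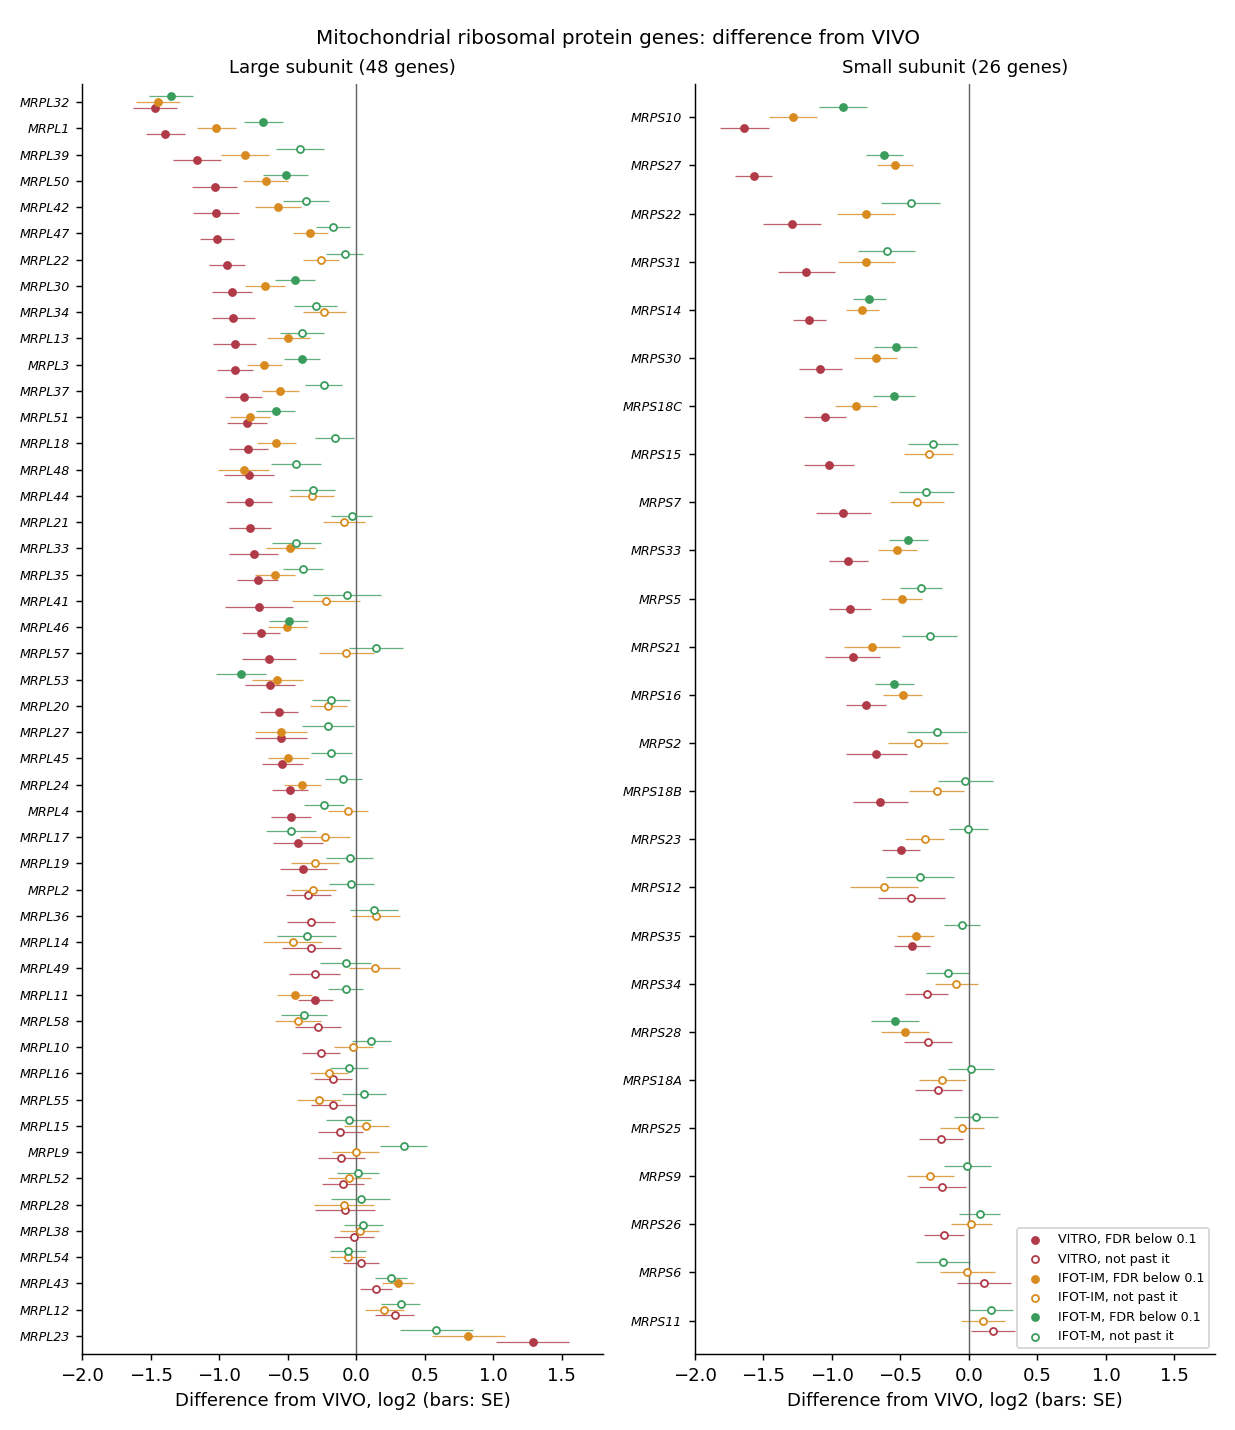
Difference from VIVO (log2, bars are SE) of each large and small subunit gene in VITRO, IFOT-IM and IFOT-M, filled where FDR was below 0.1 and ordered by the VITRO value. Most VITRO points lie left of 0, IFOT-IM points lie between, and MRPL23 is the 1 member called higher in VITRO.

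The transfer groups were compared with the same 3 VIVO arrays, so their results share those arrays with each other and with VITRO. IFOT-M against VIVO asks about maturation outside the follicle and the oocyte's origin, with later development in the animal. In it 8 large subunit, 8 small subunit and 7 import members were lower and none was higher, with medians of -0.18, -0.30 and -0.28. Over all probe sets 6.87% were lower and 3.21% higher. Relative to the level bands the medians were -0.06, -0.18 and -0.22, with 28 of 48, 20 of 26 and 17 of 23 members below the median of their band. Only MRPL32 and TIMM8A fell more than 2-fold (0.901% of all probe sets did), and 42 of 97 members had every IFOT-M array below every VIVO array (15.4% of all). The counts of members called lower in the ribosomal lists rested on few arrays. Without VIVO replicate 1, 2 or 3 the large subunit count was 5, 4 and 3 and the small subunit count 3, 5 and 3, and without IFOT-M replicate 1, 2 or 3 they were 5, 4 and 3 and 5, 4 and 3. After quantile normalization 2, 3 and 6 members of the 3 lists were lower and after cyclic loess normalization 3, 3 and 7, and 10 of the 23 were lower under all 3 scalings (MRPL1, MRPL32, MRPS10, MRPS14, TIMM8A, TIMM8B, TIMM21, TOMM5, TOMM7 and TOMM70). The largest called differences after MRPL32 and TIMM8A were those of MRPS10, TOMM5, MRPL53 (-0.84) and TIMM8B.

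In IFOT-IM, where maturation too took place in a follicle, 21 large subunit, 13 small subunit and 12 import members were lower than in VIVO and 2 large subunit members were higher, with medians of -0.32, -0.43 and -0.48. Of all probe sets 12.6% were lower and 7.95% higher. Relative to the level bands the medians were -0.11, -0.27 and -0.21, with 30 of 48, 19 of 26 and 18 of 23 members below the median of their band. More than 2-fold falls were seen in 5 members (2.02% of all probe sets), namely MRPL1, MRPL32, MRPS10, TIMM8A and TOMM70, and 56 of 97 members had every IFOT-IM array below every VIVO array (17.5% of all). Without IFOT-IM replicate 1 the 3 counts of lower members were 13, 6 and 10, and without VIVO replicate 1 the small subunit count was 8. After quantile normalization 6, 4 and 7 members were lower and 2, 0 and 0 higher. After cyclic loess normalization 7, 5 and 7 were lower and 3, 0 and 1 higher. Under all 3 scalings 16 of the 46 were lower (MRPL1, MRPL3, MRPL32, MRPL39, MRPL50, MRPL51, MRPS10, MRPS14, MRPS18C, MRPS35, TIMM8A, TIMM8B, TIMM9, TIMM21, TOMM5 and TOMM70). Among the largest called differences of the ribosomal lists were also those of MRPL48 (-0.82) and MRPL51 (-0.78), of which MRPL51 was lower under all 3. MRPS16 was called lower in all 3 groups on the deposited values (-0.75 in VITRO, -0.54 in IFOT-M, -0.48 in IFOT-IM) and under neither other scaling. No member was called between IFOT-M and IFOT-IM, nor was any of all probe sets (0%), so the larger counts in IFOT-IM are not shown to be a difference between the transfer groups. The median difference between them (IFOT-M minus IFOT-IM) was 0.14 in both ribosomal lists and 0.06 in import.

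VITRO against IFOT-M holds laboratory maturation constant and changes the site of fertilisation and development, together with the injection into a follicle. These cannot be told apart here. Here 18 large subunit, 15 small subunit and 9 import members were lower in VITRO and 1, MRPL23, was higher, a call lost without any of 9 arrays, against 12.9% of all probe sets lower and 8.38% higher. Medians were -0.34, -0.44 and -0.24, and relative to the level bands -0.04, -0.12 and -0.07. Below the median of their band were 28 of 48, 18 of 26 and 13 of 23 members. Without IFOT-M replicate 1 the counts called lower were 11, 6 and 5, and without IFOT-M replicate 3 the large subunit count was 11. Without IFOT-M replicate 2 or VITRO replicate 1 the small subunit count was 7. After quantile normalization 4, 3 and 6 were lower and 1, 0 and 1 higher. After cyclic loess normalization 4, 2 and 3 were lower and 1, 0 and 2 higher. Against IFOT-IM, 4, 3 and 4 members were lower in VITRO and none was higher (5.86% and 2.81% of all probe sets). Medians were -0.19, -0.25 and -0.17, and relative to the level bands 0.03, -0.08 and -0.02. Below the median of their band were 22 of 48, 15 of 26 and 14 of 23 members. Without IFOT-IM replicate 1 the counts called lower were 10, 6 and 9, without replicate 2 they were 3, 1 and 2 and without replicate 3 likewise 3, 1 and 2. After cyclic loess normalization 0, 1 and 1 were called lower in VITRO and 1, 0 and 1 higher, with medians of 0.04, -0.06 and -0.01.

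Set against VIVO, the members fell into a few patterns. There were 22 members called lower in all 3 groups, 23 called lower in VITRO and IFOT-IM, and 20 called lower in VITRO alone, patterns that 6.19%, 5.59% and 10.4% of all probe sets tested had. MRPS28 was called lower in IFOT-IM (-0.47) and IFOT-M (-0.54) but stood at -0.30 in VITRO, though its calls were lost without any of 9 and 8 arrays and after either other scaling. In addition 27 members were not called in any group, a pattern that 49.1% of all probe sets had. Being called in VITRO alone does not show a difference from the transfer groups. Of these 20, 13 were also lower in VITRO than in IFOT-M when that was tested and 6 were lower than in both transfer groups, namely MRPL21, MRPL22, MRPL34, MRPS15, TIMM13 and TOMM40. Counting all members, 11 were lower in VITRO than in both transfer groups, which adds MRPL47, MRPS14, MRPS27, TIMM23 and TIMM50. Under all 3 scalings 2 of these 11, MRPS27 and TIMM13, kept both calls. Of all probe sets 12.9% were lower in VITRO than in IFOT-M and 5.86% lower than in IFOT-IM. The share lower than in both was not counted. In the highest level band the median differences of all probe sets were -0.44 from IFOT-M and -0.26 from IFOT-IM. The call of MRPS14 against IFOT-IM (-0.39, FDR 0.093) was lost without any of 10 arrays, and those of MRPL34 and MRPS15 without 2.

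**Figure D5:**
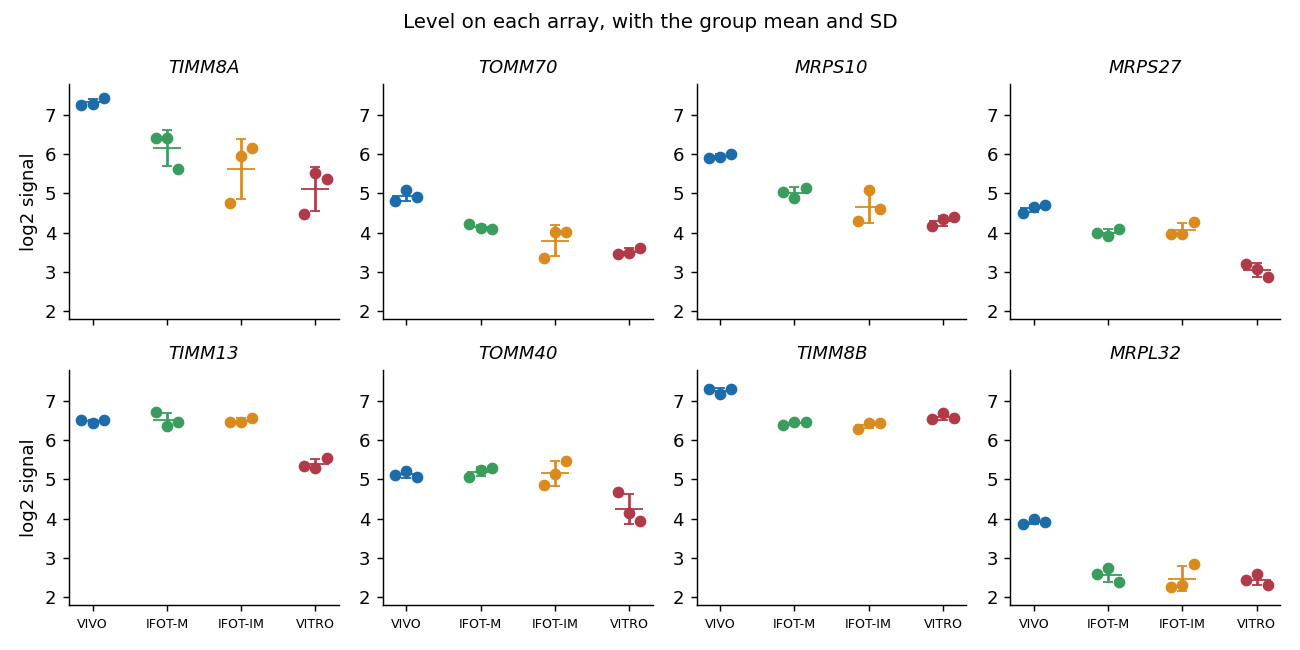
Log2 signal of 8 members on each array (points) with the group mean and SD (bar and whiskers, n = 3). TIMM13 and TOMM40 are low only in VITRO, and TIMM8B and MRPL32 are lower than VIVO in all 3 other groups, TIMM8B least in VITRO. MRPS27 has 3 separate levels on these deposited values.

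Besides TOMM40L and TOMM20L, the members called higher than VIVO on the deposited values, MRPL23 and MRPL43, were of the large subunit. MRPL23 measured 4.71, 3.78 and 5.02 in VIVO, 5.26, 5.14 and 4.86 in IFOT-M, 5.29, 5.10 and 5.58 in IFOT-IM and 5.90, 5.98 and 5.49 in VITRO. VIVO was the lowest group but also the most scattered, with replicate 2 far below the others. The difference was 1.29 in VITRO (SE 0.266, FDR 0.0028), which held with each array left out, and 0.82 in IFOT-IM (FDR 0.060), which was lost without VIVO replicate 2 or IFOT-IM replicate 1 or 3. A second probe set of the gene gave 0.29 in VITRO (SE 0.18, FDR 0.21), so the 2 probe sets disagreed in size. MRPL43 was higher in IFOT-IM by 0.31 (FDR 0.099), a call lost without any of 10 arrays on the deposited values. After quantile and cyclic loess normalization MRPL43 was called higher both in IFOT-IM (0.51 and 0.57) and in VITRO (0.53 and 0.63). MRPL12, of the stalk that recruits translation factors, stood at 0.28 in VITRO (FDR 0.13), 0.32 in IFOT-M and 0.20 in IFOT-IM, and was called higher in VITRO under the same scalings (0.60 and 0.68). MRPL33, the only other member with several probe sets, differed by -0.75 in VITRO, -0.48 in IFOT-IM and -0.44 in IFOT-M on the chosen probe set and by -1.16, -1.28 and -1.13 on the other, all 3 of the latter called.

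Other genes of the same processes were read for comparison from lists of known components. They were read on the deposited values only, where 22.7% of all probe sets were lower in VITRO than in VIVO and 25.1% higher. Of 5 measured ribosomal proteins with other symbols, 4 were lower in VITRO, with DAP3 at -0.47, PTCD3 at -0.93, CHCHD1 at -0.70 and AURKAIP1 at -0.81, and GADD45GIP1 stood at 0.03. Of 9 translation factors 5 were lower: the recycling factor MRRF (-1.03), the elongation factors GFM1 (-0.76) and TSFM (-0.49), the recycling factor GFM2 (-0.85) and the release factor MTRF1L (-0.73). The elongation factor TUFM (-0.29) and the initiation factors MTIF2 (0.06) and MTIF3 (-0.16) passed no test. Of 17 ribosome assembly genes 6 were lower and 1 higher, the last being RBFA (0.50), a maturation factor of the small subunit.

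Of 18 import partners 9 were lower in VITRO, among them DNAJC15 (-1.45), a cochaperone of the import motor, the inner membrane insertase OXA1L (-1.10), the processing peptidase subunit PMPCB (-0.99) and the outer membrane sorting proteins MTX1 (-0.84) and SAMM50 (-0.79). The motor's nucleotide exchange factors GRPEL1 (-0.05) and GRPEL2 (-0.06) and the intermembrane space oxidase CHCHD4 (0.06) passed no test. PMPCB and MTX1 were also lower in IFOT-IM (-1.07 and -0.97) and IFOT-M (-0.76 and -0.79). In IFOT-M and IFOT-IM, 3 and 8 of the 18 import partners, 2 and 3 of the 9 translation factors and 2 and 3 of the 17 assembly genes were lower than in VIVO (6.87% and 12.6% of all probe sets). By symbol pattern, 33 of 43 cytoplasmic ribosomal protein genes were lower in VITRO (median -0.46) and 58 of 76 respiratory chain and ATP synthase genes (median -0.64), against 22.7% of all probe sets. Relative to their level bands these medians were 0.13 and -0.01. The large subunit, small subunit and import lists had -0.13, -0.32 and -0.22. Ribosomal proteins with other symbols, translation factors, assembly genes and import partners had -0.14, -0.28, -0.19 and -0.17.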

How the data were processed

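The authors deposited 1 table of log2 signals from 12 Affymetrix Bovine Gene 1.0 ST arrays, normalized by them, with 26773 probe sets and values from -0.39 to 12.6. Arrays were grouped by their labels, which number the 3 pools of a group as replicates. The study's methods call them independent biological replicates. The number of arrays limits the precision. The 24415 probe sets with the highest mean were tested with limma 3.58.1 (R 4.3.3), all 4 groups in 1 fit with 8 residual degrees of freedom, moderated variances and Benjamini-Hochberg adjustment over all of them, after the script was tested on simulated data. Probe sets were named from the platform annotation: 18457 had 1 symbol, 688 several and 7628 none, and of 99 member probe sets the one with the highest mean was kept per gene. Members and lists were chosen with earlier results of these data known. Genes named were, in each ribosomal list, the 5 lowest and 3 highest in VITRO against VIVO, the 2 with the highest mean level, up to 5 largest called differences in either transfer group against VIVO and up to 3 in VITRO against either, and every import member. MRPL11, MRPL34, MRPS18A, MRPS28 and those listed by a count were named after their values were seen. Alternatives covered scaling, filter, variance model, array weights, RNA integrity as covariate, replicate block, FDR 0.05, probe set choice and leaving out each array. Sequences and promoters of the members were not analysed here.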

Additional observations from a re-analysis of the deposited data

How the results depend on the processing

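Counts of members called lower are given for the large subunit, small subunit and import lists in that order, and those not printed for a setting stayed within 1.5 times the reported count. After quantile normalization they were 16 (large subunit) in VITRO against VIVO, 2 and 3 (both ribosomal lists) in IFOT-M, 6, 4 and 7 in IFOT-IM, and 4 and 3 in VITRO against IFOT-M. After cyclic loess normalization they were 12 (large subunit) and 9 (import) in VITRO, 3 and 3 in IFOT-M, 7, 5 and 7 in IFOT-IM, 4, 2 and 3 in VITRO against IFOT-M and 0, 1 and 1 against IFOT-IM. With only the compared groups in the fit, the large subunit count in IFOT-M was 13 and those of VITRO against IFOT-IM were 0, 1 and 1. Array weights gave 14 in the large subunit in IFOT-M. With RNA integrity as a covariate the small subunit counts in VITRO were 9 against IFOT-M and 1 against IFOT-IM, and the import count against IFOT-IM was 2. At FDR below 0.05 the counts were 4 and 4 in IFOT-M, and 11 and 9 in VITRO against IFOT-M. No filter, a stricter filter, robust trended variances, the unmoderated model and the probe set with the highest SD changed no count beyond 1.5 times, and under every setting no member was called between IFOT-M and IFOT-IM.

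Replicate numbers did not pair the samples: deviations of same-numbered arrays correlated at -0.083 to 0.12 over 18 pairs of arrays, different-numbered at -0.12 to 0.071. With the replicate block the large subunit count in IFOT-M was 5, and no other count changed beyond 1.5 times.

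Leaving out each array in turn, counts ran from 26 to 32, 17 to 18 and 17 to 17 in VITRO, 3 to 11, 3 to 9 and 5 to 9 in IFOT-M, 13 to 20, 6 to 13 and 10 to 13 in IFOT-IM, 11 to 18, 6 to 15 and 5 to 9 in VITRO against IFOT-M and 3 to 10, 1 to 6 and 2 to 9 against IFOT-IM.

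Of the 68 members called in VITRO against VIVO, 6 turned sign after quantile normalization (MRPL11, MRPL17, MRPL20, MRPL24, MRPS23 and TIMM17B) and 10 after cyclic loess normalization (these and MRPL19, MRPL27, TIMM8B and TIMM10), of which MRPL11 was then called higher. Of the 29 not called, 12 turned sign under each, with MRPL38 and MRPS18A called higher under both and MRPL16, MRPS25 and MRPS26 after cyclic loess. Among genes named by the fixed rule, values after cyclic loess normalization with the opposite sign were those of MRPL27 (0.14), MRPS26 (0.43), TIMM10 (0.073), TIMM17B (0.18) and TIMM8B (0.002) in VITRO against VIVO, of MRPL47 in IFOT-IM (0.0052) and of TIMM17B in VITRO against IFOT-M (0.41), and after quantile normalization that of TIMM17B (0.029) in VITRO. The cause was not tested. With 3 arrays per group, small differences of weakly expressed members such as TIMM9, TIMM22 and MRPL57 rest on signals near the lower part of the scale.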
